A study of Rattus norvegicus with 6 samples.

Results

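The genes described here are 4 transcription factors of the CCAAT/enhancer-binding protein (C/EBP) family, Cebpa, Cebpb, Cebpd and Cebpg, and 6 genes of the acute-phase response, Lcn2, Slpi, A2m, Orm1, Hp and Serpina3n. They were taken from the deposited rat gene table by symbol. Of the 10 symbols 9 had a row, out of 30957 rows in all. No row was named Serpina3n, and its level was not analysed here. Slpi had 2 rows, so that the 9 symbols gave 10 rows.

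RNA came from the flexor digitorum longus, a toe-flexing muscle of the hind limb, of wild-type Sprague-Dawley rats. The control group was muscle at 0 h (3 libraries), and the other group was muscle taken 18 h into acute osteofascial compartment syndrome (ACS; 3 libraries), a condition in which pressure builds up inside a closed muscle compartment. ACS was produced by tying a low-elastic band around the skin of the knee, and the treatment label reads ACS for both groups. Neither the age of the rats nor any sham procedure is given in the sources used here, nor whether each library came from a separate rat. The p-values therefore reflect the spread among the 6 libraries, part of which may be technical. The descriptions of control replicate 3 and ACS replicate 3 carry the letters "ji", whose meaning is not given, and fits with a term for them or without them were also run.

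C/EBP factors are basic leucine zipper proteins that bind DNA as dimers with each other. Cebpb and Cebpd are known as mediators of the response to interleukin-6 and interleukin-1 in liver, where they act on promoters of acute-phase genes. Cebpa is known as a factor of mature hepatocytes, fat cells and myeloid precursors, and Cebpg as a partner without a strong activation domain of its own. Acute-phase proteins are secreted in inflammation, mostly by the liver, but Lcn2, Slpi and Hp are also made by neutrophils, macrophages, fat cells or epithelia.

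Library totals ran from 14340865 to 21003928 counts. ACS replicate 1 stood apart, with 43.4% of its counts on the mitochondrial chromosome against 4.82% to 8.60% in the others. Values without it are given for part of the results only, and it also moved others that are given with it alone. Of the 10 skeletal muscle markers 8 had a row, and their summed level lay between 138488 and 160983 CPM (read counts per library size, scaled by the trimmed mean of M-values, TMM) in control and was 87699, 128648 and 210958 CPM in ACS replicates 1, 2 and 3. The most abundant of them, the fast myosin heavy chain Myh1, had a log2 fold change of 0.13 (SE 0.552, edgeR adjusted p = 0.904), and its lowest value with 1 library left out was -0.41. In whole muscle RNA, fewer cells of a type and less RNA per cell cannot be told apart.

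Among the C/EBP factors Cebpd rose in ACS muscle, by 5.69-fold, while Cebpa, Cebpb and Cebpg did not pass the test. Among the acute-phase genes Lcn2 rose 18.7-fold, and Slpi rose from 4 reads in all control libraries together to 666 in ACS muscle. Hp had a fitted fold change of 5.94 but missed the threshold, Orm1 was counted in ACS muscle and in no control library, and A2m had no read anywhere. No member fell.

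Of the 7 members that passed the filter on low counts, 3 were thus higher and 0 lower at an adjusted p under 0.05 in edgeR's quasi-likelihood test, fitted on all 12873 genes kept. Of all genes kept, 3.43% were higher and 0.707% lower. For lower members the count was also 0 at an unadjusted p under 0.05 (7.98% of all genes), in DESeq2 (3.62%) and in limma-voom (0.552%). For higher members 5 had an unadjusted p under 0.05, against 15.5% of all genes. The share of all genes higher was 10.4% with DESeq2, 2.04% with limma-voom, 4.02% with no filter, 1.93% with a term for the "ji" libraries and 1.31% without them. Every ACS library lay above every control library for 5 of the 7, against 16.7% of all genes kept. The median log2 fold change of the 7 was 2.51, against -0.01 over all genes kept. The members were chosen with earlier results of these data known, and Slpi passed the filter through its ACS libraries alone, so these counts describe the genes and support nothing further.

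**Figure D1:**
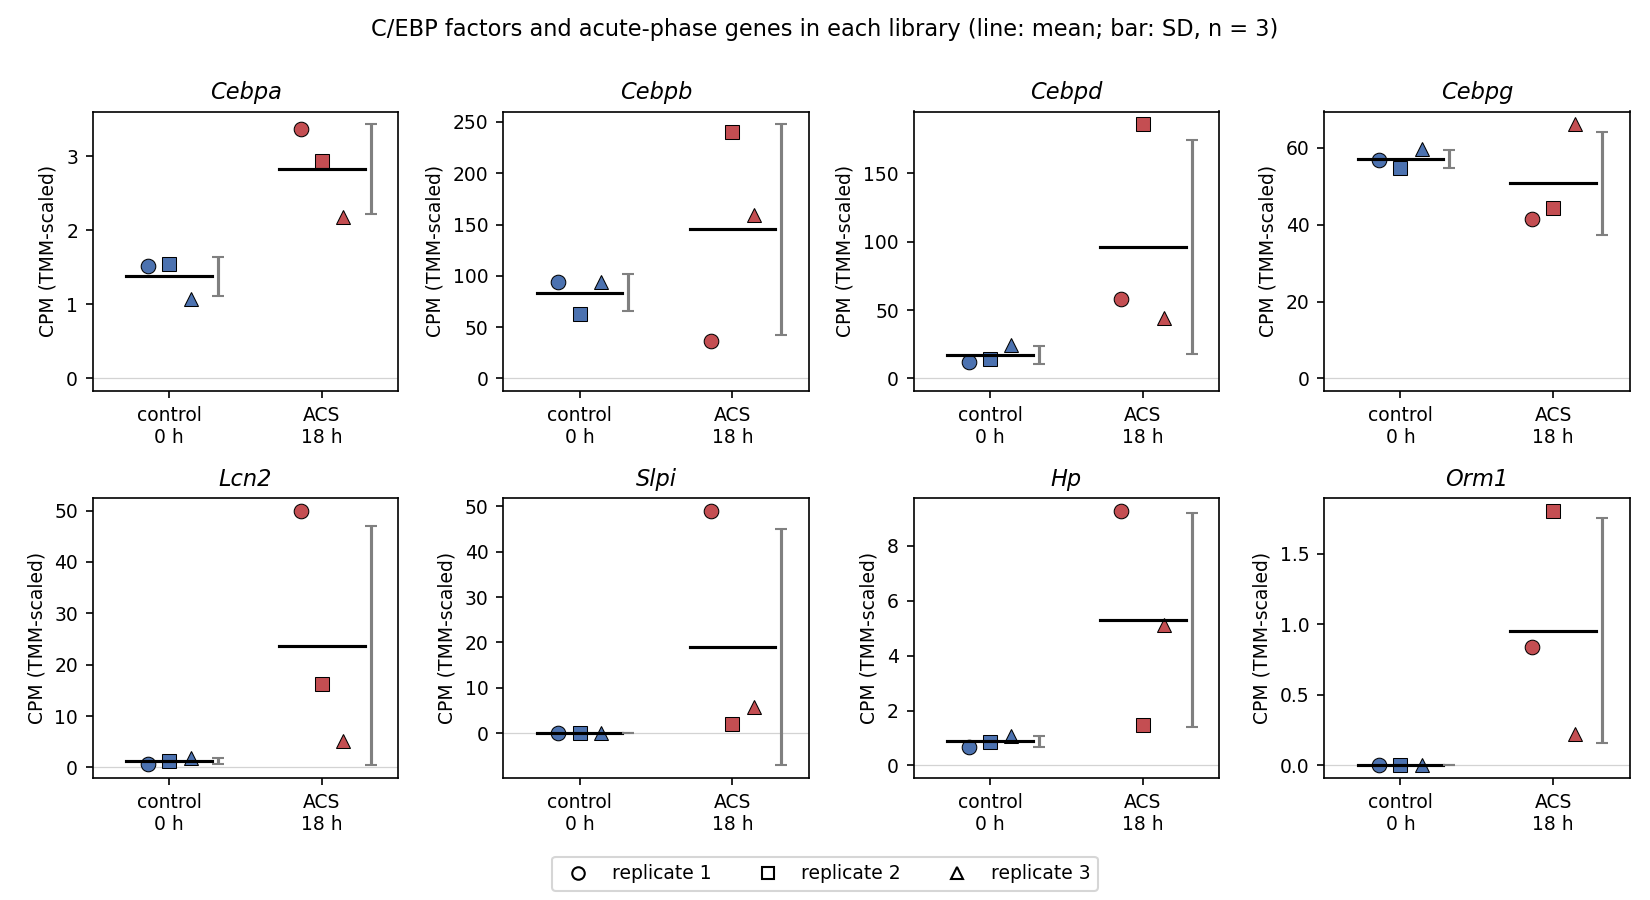
Level of each counted gene in the 6 libraries, as TMM-scaled CPM on a linear axis. Points are libraries, marked by replicate number, with the group mean as a line and the SD (n = 3) as a bar. The ACS libraries spread more than the controls in each panel: Lcn2 and Slpi peaked in ACS replicate 1 (49.9 and 48.9 CPM), Cebpd, Cebpb and Orm1 in ACS replicate 2 (186, 240 and 1.80 CPM).

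Cebpd (ENSRNOG00000050869, positions 89008008 to 89009146 of chromosome 11, Rnor 6.0) measured 12.0, 14.1 and 24.5 CPM in control replicates 1, 2 and 3 and 58.4, 186 and 44.2 CPM in ACS replicates 1, 2 and 3. The groups did not overlap, and ACS replicate 2 held most of the ACS signal. The log2 fold change was 2.51 (SE 0.570, 95% interval 1.21 to 3.81, adjusted p = 0.0489 by edgeR). This call stood close to the threshold. Without ACS replicate 2 the log2 fold change was 1.56 and did not pass (adjusted p = 0.0747), and it passed without ACS replicate 1 (2.77, adjusted p = 0.0229) and without ACS replicate 3 (2.85, adjusted p = 0.0192). It also did not pass when counts were scaled by library totals (adjusted p = 0.0629) or when mitochondrial and haemoglobin genes were kept out of the scaling (adjusted p = 0.0509). With a term for the "ji" libraries the adjusted p was 0.0872 for Cebpd and 0.0728 for Lcn2, and without those libraries it was 0.0628 for Cebpd and 0.0799 for Slpi. Without control replicate 1, 2 or 3 edgeR called 0 genes of the whole table, Cebpd, Lcn2 and Slpi included, with 1384, 1388 and 1519 genes higher at an unadjusted p under 0.05.

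Cebpb (ENSRNOG00000057347, positions 164424515 to 164425910 of chromosome 3), the factor also known as NF-IL6, had the highest FPKM (counts per gene length) of the family in control muscle. Its control libraries measured 94.3, 62.5 and 94.0 CPM and its ACS libraries 36.3, 240 and 160 CPM. ACS replicate 1 lay below every control library and the other ACS libraries lay above them, so the groups overlapped. The log2 fold change was 0.80 (SE 0.570, 95% interval -0.50 to 2.10, adjusted p = 0.429). Without ACS replicate 1 the value was 1.26 and passed (adjusted p = 0.0358). Leaving out ACS replicate 2 gave 0.21 (adjusted p = 0.857).

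Cebpa (ENSRNOG00000010918, positions 91363492 to 91366164 of chromosome 1) was scarce in every library, at 1.51, 1.55 and 1.07 CPM in control and 3.37, 2.93 and 2.18 CPM in ACS muscle. The groups did not overlap, and the ACS libraries were closer to each other than for any other member with separate groups. The log2 fold change of 1.03 (SE 0.395, 95% interval 0.13 to 1.93) had an unadjusted p = 0.0293 and did not pass over all genes (adjusted p = 0.162), nor did it in any of 16 alternatives. Cebpg (ENSRNOG00000021144, positions 91287917 to 91296656 of the same chromosome) measured 56.7, 54.8 and 59.6 CPM in control and 41.5, 44.4 and 66.1 CPM in ACS muscle. Its groups overlapped, and its log2 fold change was -0.17 (SE 0.259, 95% interval -0.76 to 0.42, adjusted p = 0.717). That interval lay wholly below the one of Cebpd.

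To compare levels between the factors, the deposited FPKM values (counts per gene length and library size) were used. The 4 factors summed to 104, 82.7 and 123 FPKM in control and to 67.6, 350.1 and 164 FPKM in ACS replicates 1, 2 and 3. Cebpb supplied 70.9%, 60.7% and 63.1% of that sum in control and 28.7%, 49.2% and 66.0% in ACS muscle. Cebpd supplied 11.1%, 16.8% and 20.1% in control and 56.5%, 46.7% and 22.4% in ACS muscle, so every ACS library lay above every control library. Cebpg supplied 17.4%, 21.7% and 16.4% in control and 13.4%, 3.72% and 11.2% in ACS muscle, with every ACS library below. The shares of a library add up to a whole, so a higher share of Cebpd lowers the others, and they are not separate results. Cebpa stayed between 0.314% and 1.39% throughout.

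The share of Cebpd was 16.02% ± 4.58 in control and 41.9% ± 17.6 in ACS muscle (SD, n = 3 each). The difference was 25.9 percentage points, and 18.5 without ACS replicate 1. A two-sided exact permutation test over libraries gave p = 0.1 for Cebpd and for Cebpg, the smallest that 3 libraries against 3 allow (adjusted p = 0.2 over the 4 factors). The same exact permutation test gave p = 0.3 for Cebpb and p = 0.9 for Cebpa. None of the 4 shares could reach 0.05 in this design. The order within the family differed between ACS libraries: Cebpd led in replicate 1, Cebpb and Cebpd were nearly level in replicate 2, and Cebpb led in replicate 3, as it did in each control library.

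**Figure D2:**
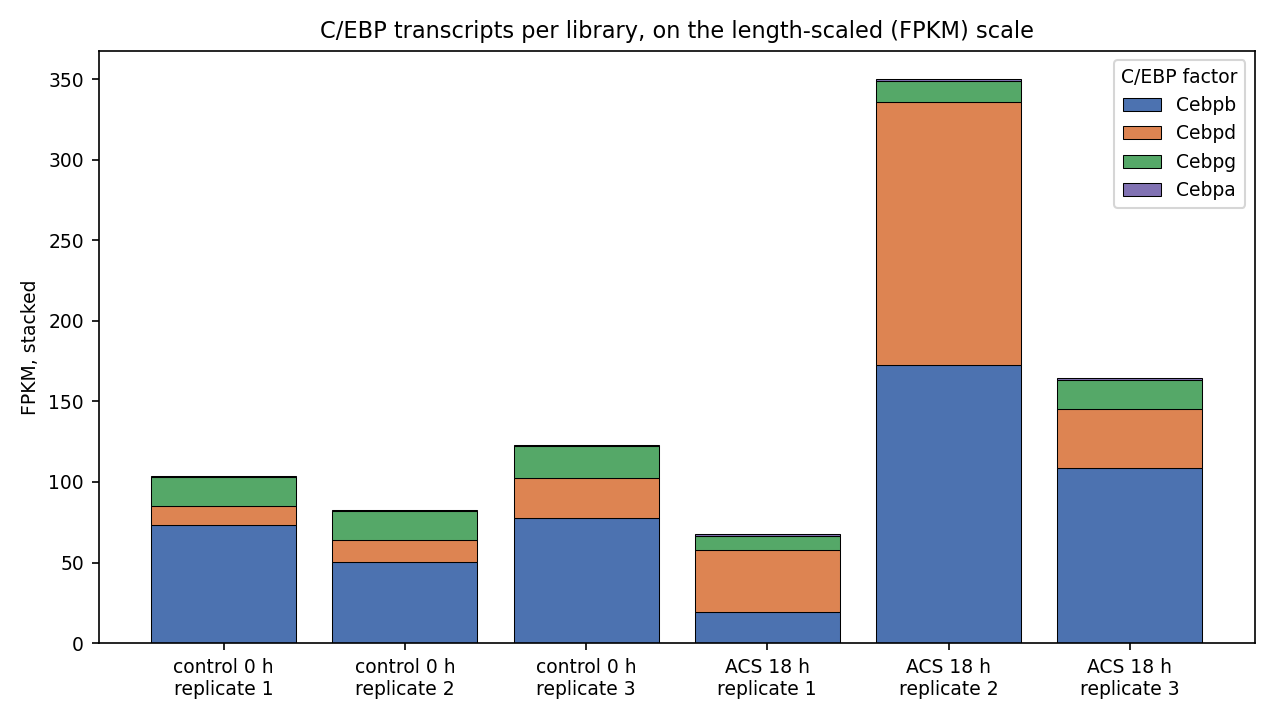
FPKM of the 4 C/EBP factors stacked for each library, so that bar height is their sum. Cebpb makes up most of each control bar (60.7% to 70.9%), and the Cebpd part takes 22.4% to 56.5% of the ACS bars, whose heights range from 67.6 to 350.1 FPKM.

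Lcn2 (ENSRNOG00000013973, positions 11414186 to 11417546 of chromosome 3) encodes lipocalin 2, a secreted protein that withholds iron from bacteria by binding their siderophores. It measured 0.634, 1.21 and 1.90 CPM in control and 49.9, 16.2 and 5.08 CPM in ACS muscle, from 84 reads in control and 939 in ACS muscle. The groups did not overlap, but the ACS libraries were widely spread, from 4.07 to 40.0 times the control mean. The log2 fold change was 4.23 (SE 0.831, 95% interval 2.33 to 6.12, adjusted p = 0.0341 by edgeR). It passed without ACS replicate 1, at 3.08 (adjusted p = 0.0179), but not without ACS replicate 2, at 4.38 (adjusted p = 0.0556).

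Slpi (ENSRNOG00000046699, positions 160799981 to 160802433 of chromosome 3) encodes the secretory leukocyte peptidase inhibitor, which blocks neutrophil elastase. It had 0, 2 and 2 reads in control replicates 1, 2 and 3 and 523, 40 and 103 reads in ACS replicates 1, 2 and 3, the latter at 48.9, 2.06 and 5.75 CPM. The groups were far apart, and ACS replicate 1 held most of the reads. The ratio of scaled counts was 227, with a 95% binomial interval of 88.1 to 834 that covers counting error only. Without ACS replicate 1 the ratio was 62.6 (23.9 to 233) and without ACS replicate 2 it was 358 (139 to 1317). The edgeR log2 fold change was 8.12 (SE 1.48, adjusted p = 0.0294), and 5.86 (adjusted p = 0.00577) without ACS replicate 1. Slpi passed the filter through its ACS libraries alone, so these values describe the gene and support nothing further. A further row named Slpi, on the unplaced scaffold KL568447.1, had no read in any library, so how reads were divided between the copies is uncertain. A search of gene descriptions for the members' protein names also found RGD1563818, at positions 160727910 to 160730360 of chromosome 3. It lies on the same strand as Slpi, spans 2451 bases against 2453 and had no read either.

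Hp (ENSRNOG00000014964, positions 42097995 to 42100804 of chromosome 19) encodes haptoglobin, which binds free haemoglobin. It measured 0.683, 0.871 and 1.07 CPM in control and 9.26, 1.49 and 5.13 CPM in ACS muscle. The groups did not overlap, though ACS replicate 2 lay close to the controls. The log2 fold change was 2.57 (SE 0.641, 95% interval 1.11 to 4.03) and missed the threshold (adjusted p = 0.0587 by edgeR). It was 2.98 and passed without ACS replicate 2 (adjusted p = 0.0353), and was 1.90 without ACS replicate 1 (adjusted p = 0.0769). Haemoglobin genes took 0.0765% to 0.208% of counts in control and 1.26%, 0.315% and 0.626% in ACS replicates 1, 2 and 3, an order that Hp shared. The part of red cell RNA or blood in this result was not tested.

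Orm1 (ENSRNOG00000007886, positions 79179417 to 79182820 of chromosome 5) encodes orosomucoid 1, a plasma carrier protein also called alpha-1-acid glycoprotein. It had no read in any control library and 9, 35 and 4 reads in ACS replicates 1, 2 and 3, at 0.842, 1.80 and 0.223 CPM. It was too low for the filter. With 3 counts set as a floor for the control libraries together, the ratio of scaled counts for Orm1 was 21.8. It was 9.91 without ACS replicate 2 and 13.7 without control replicate 3. These ratios pool the ACS reads and take them as observed, so they are not lower limits. The lower end of the binomial interval over all libraries was 17.0, which covers counting error only. The peak of Orm1 in replicate 2 was shared with Cebpd and Cebpb and not with Lcn2, Slpi or Hp.

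A2m (ENSRNOG00000028896, positions 154309426 to 154359137 of chromosome 4) encodes alpha-2-macroglobulin, a broad protease trap and in the rat a classic liver acute-phase protein. It had 0 counts in all 6 libraries, which allows up to 0.124 to 0.280 CPM per library at 3 counts. A row described as alpha-2-macroglobulin-like, LOC100911545, lies downstream on the same strand at positions 154423209 to 154472924. It spans 49716 bases, against 49712 for A2m, and also had 0 counts. The sources used here do not say how reads that match several places were treated, so A2m was not detected rather than shown to be absent.

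**Figure D3:**
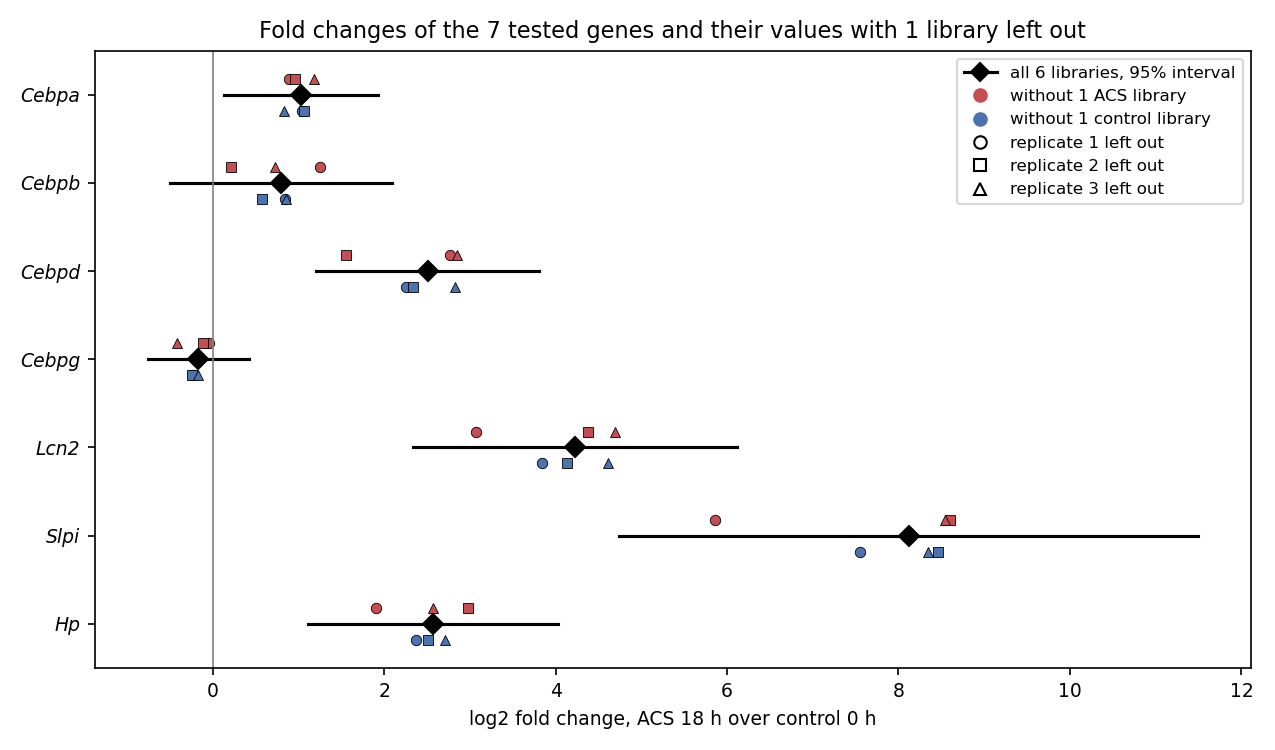
Log2 fold changes of the 7 tested genes (diamonds, with 95% intervals) and the values with 1 library left out (red, an ACS library; blue, a control library; marker shape gives the replicate). Leaving out ACS replicate 1 moved Slpi most (8.12 to 5.86), leaving out ACS replicate 2 moved Cebpd from 2.51 to 1.56, and no gene changed sign.

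Promoter windows in the RefSeq table (build GRCr8) were matched by symbol for 6 of the 10 genes: Cebpa, Cebpb, Cebpg, Lcn2, Orm1 and Serpina3n. Each window runs from 250 bases before the start to 50 after it. Windows were searched on both strands for a C/EBP core (TTGCNNAA), a STAT motif (TTCNNNGAA), an NF-kB motif (GGGA, any 4 bases, CC) and an AP-1 motif (TGANTCA). A C/EBP core was in 2 of the 6 windows, those of Lcn2 and Orm1, and in 10.6% of all 33469 windows. An NF-kB match was in 4 of the 6 (Cebpb, Lcn2, Orm1 and Serpina3n) and in 19.3% of all. The STAT motif was in 1 (Serpina3n) and in 8.87% of all, and the AP-1 motif in 1 (Orm1) and in 7.33% of all. These are letter matches and were not measured as binding.

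The 250 bases before the start are shown for both genes with a C/EBP core and for Cebpb, the most abundant factor, 5′ to 3′ on the strand of the gene with matches in capitals. Lcn2 is at chr3:36081781-36082030 on the minus strand, Orm1 at chr5:81788259-81788508 and Cebpb at chr3:176816755-176817004 on the plus strand, all in GRCr8.
Lcn2: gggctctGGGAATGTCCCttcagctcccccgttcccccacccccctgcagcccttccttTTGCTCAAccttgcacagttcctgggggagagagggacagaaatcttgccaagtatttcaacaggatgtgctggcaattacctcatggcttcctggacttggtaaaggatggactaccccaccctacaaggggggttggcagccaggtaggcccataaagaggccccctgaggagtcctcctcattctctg
Orm1: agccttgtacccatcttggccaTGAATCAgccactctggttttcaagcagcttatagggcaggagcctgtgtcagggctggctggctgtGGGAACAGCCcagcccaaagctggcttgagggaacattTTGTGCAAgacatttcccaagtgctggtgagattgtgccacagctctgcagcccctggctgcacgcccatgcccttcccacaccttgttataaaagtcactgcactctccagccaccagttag
Cebpb: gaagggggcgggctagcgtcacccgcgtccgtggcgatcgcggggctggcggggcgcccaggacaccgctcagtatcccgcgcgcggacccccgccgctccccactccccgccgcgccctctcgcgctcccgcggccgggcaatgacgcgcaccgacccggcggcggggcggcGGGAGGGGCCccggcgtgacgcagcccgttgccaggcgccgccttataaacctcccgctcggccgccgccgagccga
In Lcn2 the C/EBP core TTGCTCAA spans positions -191 to -184 from the start. The NF-kB motif matched there on both strands, at -243 to -234 and at -242 to -233, and these matches overlap. In Orm1 the core reads TTGTGCAA, a match on the reverse strand at -123 to -116, with an NF-kB match at -161 to -152 and an AP-1 match at -228 to -222. The Cebpb window held 1 NF-kB match, at -77 to -68, in a sequence of 81.0% G and C.

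Genes related to the C/EBP factors were measured beside them. Of 8 C/EBP relatives and regulators 5 were tested. Of these 5, 1 rose, against 3.43% of all genes kept, and none fell, with a median log2 fold change of 0.70. By DESeq2 2 were higher, against 10.4% of all genes, and by limma-voom 1, against 2.04%. The number was 1 with a term for the "ji" libraries, against 1.93% of all genes, and 0 without those libraries, against 1.31%. Trib1, a pseudokinase that directs Cebpa protein to degradation, had a control level of 19.0 ± 5.52 CPM and an ACS level of 65.1 ± 20.2 CPM (SD, n = 3 each), and rose by 1.78 on the log2 scale (SE 0.334, adjusted p = 0.0311 by edgeR). Its relative Trib2 measured 31.9 ± 13.1 and 10.2 ± 5.21 CPM and did not pass (log2 fold change -1.65, adjusted p = 0.0803). Cebpz, which shares the name but not the leucine zipper, measured 24.4 ± 3.57 and 60.1 ± 34.0 CPM (adjusted p = 0.0931). Cebpe, the family member of late granulocyte precursors, had 0 reads in control and 2 in ACS muscle.

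Of 21 genes of the cytokine pathways upstream of the acute-phase response 18 were tested. Of these 18, 7 rose, against 3.43% of all genes kept, and none fell, with a median log2 fold change of 2.54. Il6, Osm and Csf3 had 11, 7 and 1 reads in control and passed the filter through ACS libraries alone, so the count and median describe the list and support nothing further. Socs3, the feedback inhibitor of interleukin-6 family receptors, had a control level of 2.56 ± 0.950 CPM and an ACS level of 71.0 ± 30.9 CPM, a log2 difference of 4.79 (SE 0.459, adjusted p = 0.00820 by edgeR). Its level was 64.0, 105 and 44.2 CPM in ACS replicates 1, 2 and 3, in the same order of libraries as Cebpd. Il6r, the ligand-binding receptor of interleukin-6, rose by a log2 fold change of 3.28 (SE 0.441), and Il1r1, the signalling receptor of interleukin-1, by 3.56 (SE 0.491). The other 4 were Il6, Csf3, Osmr and Stat3, the last, picked after its values were seen, at 770.1, 876 and 176 CPM in ACS replicates 1, 2 and 3 against 68.8 to 93.4 CPM in control. Members of this list higher numbered 8, 7 and 13 without ACS replicates 1, 2 and 3. The whole table then held 656 of 13153, 282 of 13185 and 1286 of 13226 genes higher. With limma-voom 5 of the list were higher, against 2.04% of all genes.

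Of 24 other acute-phase genes 22 had a row and 11 passed the filter. Of these 11, 3 rose, against 3.43% of all genes kept, with a median log2 fold change of 3.02. Il1rn, the interleukin-1 receptor antagonist, had 10 reads in control and was among the 11 through its ACS libraries alone. The count and median therefore describe the list and support nothing further. The 3 were Mt2A, a metallothionein (8.44, SE 0.973), Ptx3, a pentraxin made outside the liver (6.50, SE 0.917), and Timp1, an inhibitor of matrix metalloproteinases (6.05, SE 1.28). Without ACS replicate 1 they were at 8.14, 5.02 and 3.54. Mt2A may share reads with similar metallothionein genes, so its level is uncertain. The fibrinogen chains Fgb and Fgg, the serum amyloid P gene Apcs and Kng1l1 had no read in any library, and Fga had at most 0.0936 CPM. With DESeq2 8 of the list were higher, against 10.4% of all genes. Without ACS replicate 3 the number was also 8, against 1286 of 13226 genes in the whole table. Without ACS replicate 2 it was 2, against 282 of 13185 genes.

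Most hepatocyte genes were at or near 0. Of 13 hepatocyte and negative acute-phase markers 2 passed the filter and none passed the edgeR test, with no member at an unadjusted p under 0.05 and none called by DESeq2 or limma-voom. Apoa2, Apob and Hnf4a had no read in any library, and Alb, the albumin gene, had 0 reads in control and 2 in ACS muscle. The list's summed level was 25.3, 28.6 and 31.6 CPM in control and 93.2, 29.5 and 36.6 CPM in ACS muscle, nearly all of it Tf, the transferrin gene, at 26.3 ± 2.94 and 50.6 ± 34.1 CPM (adjusted p = 0.233).

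Neutrophil markers were measured alongside the acute-phase genes. Of 16 markers 9 passed the filter, Mmp8 and Mmp9 through their ACS libraries alone. Of these 9, 7 rose, against 3.43% of all genes kept, with a median log2 fold change of 5.02. Because of Mmp8 and Mmp9, this count and median describe the list and support nothing further. By limma-voom 0 were higher, against 2.04% of all genes, and by DESeq2 7, against 10.4%. With a term for the "ji" libraries 2 were higher, against 1.93% of all genes, and without those libraries 0, against 1.31%. Mmp8, the neutrophil collagenase, was at 31.8, 3.86 and 11.4 CPM in ACS replicates 1, 2 and 3. S100a8, a calcium-binding protein of granulocytes, was at 33.9, 4.27 and 18.3 CPM, and the chemokine receptor Cxcr2 at 37.6, 3.81 and 6.25 CPM. The summed level of the list was 19.2 to 25.0 CPM in control and 475, 43.1 and 100.4 CPM in ACS replicates 1, 2 and 3. Most of the control sum was Ncf1, a subunit of the phagocyte oxidase, which went the other way, at 17.2 ± 5.61 CPM in control against 8.93 ± 3.13 CPM in ACS libraries (log2 fold change -0.95, unadjusted p = 0.0336 and adjusted p = 0.173 by edgeR). Without Ncf1, left out after its values were seen, the sum was 3.80, 3.68 and 8.42 CPM in control and 463, 34.2 and 94.6 CPM in ACS replicates 1, 2 and 3. Slpi and Hp had this same order of ACS libraries, while Lcn2, Cebpd, Cebpb and Orm1 did not. The granule genes Ltf and Ctsg had no read, and Camp had 2, Elane 9 and Mpo 5 reads over all libraries. The part of neutrophils in the levels of Slpi, Hp and Lcn2 was not tested.

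Macrophage markers followed another order. Of 10 markers 9 were tested and 0 passed in edgeR or in limma-voom (3.43% and 2.04% of all genes were higher there). At an unadjusted p under 0.05 6 were higher and 1 lower, against 15.5% and 7.98% of all genes kept. By DESeq2 4 were higher, against 10.4% of all genes. Their summed level was 47.9 to 80.7 CPM in control and 1753, 167 and 117 CPM in ACS replicates 1, 2 and 3, the order in which Lcn2 also stood. The summed adipocyte markers had that order too, at 326, 111 and 38.7 CPM in the ACS libraries against 82.8 to 133 CPM in control. The most abundant macrophage marker, the lysozyme gene Lyz2, made up most of the macrophage sum in the ACS libraries, at 1553, 94.2 and 78.0 CPM. Its log2 fold change was 4.38 (adjusted p = 0.0649 by edgeR), and 1.64 without ACS replicate 1. The sum thus mainly reflects Lyz2 and does not stand for every marker. Of the others, 3 were named after their values were seen. Adgre1 was the lower one, at a log2 fold change of -1.30 (unadjusted p = 0.0458 and adjusted p = 0.203 by edgeR). Csf1r and C1qa, at 0.46 and 0.09, were not among the 6 higher. The part of macrophages or fat cells in the level of Lcn2 was not tested.

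**Figure D4:**
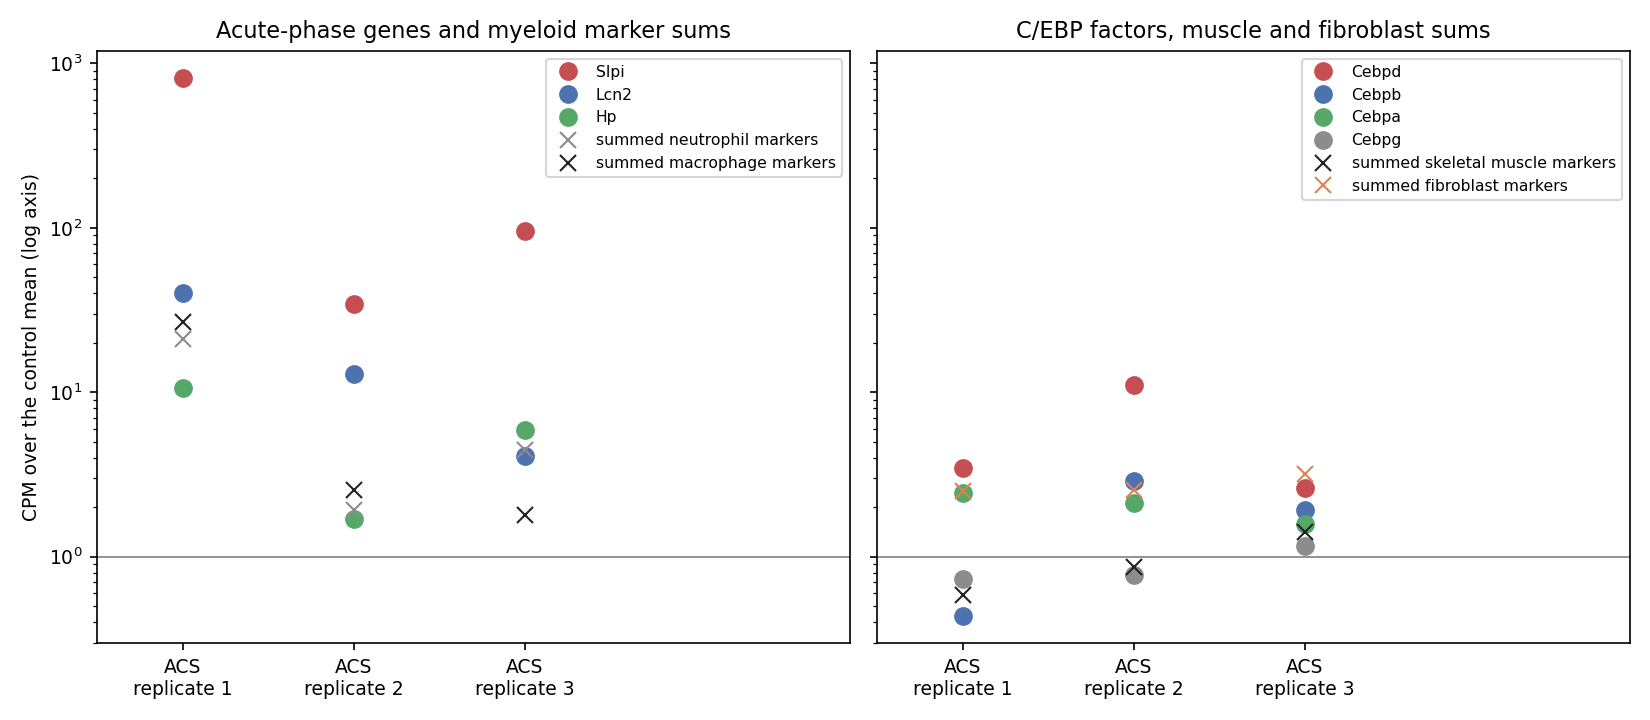
Level in each ACS library over the control mean, on a log axis, for acute-phase genes with summed neutrophil and macrophage markers (left) and for C/EBP factors with summed skeletal muscle and fibroblast markers (right). The neutrophil sum stood at 21.1, 1.91 and 4.45 times control (87.4, 6.44 and 17.8 times without Ncf1), Hp at 10.6, 1.70 and 5.86 times and Cebpd at 3.46, 11.003 and 2.62 times. The Slpi points rest on 4 control reads.

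Genes with the most similar profile over the 6 libraries were found by the root mean square difference of centred log2(CPM + 0.5), among 11059 genes with a symbol and at least 1 CPM on average. They were picked on these same libraries, so the orders they share with a member were largely set by that choice. For Slpi they were Il18rap, Mcemp1 and Lilrb4 (differences of 0.258, 0.292 and 0.309), each lowest among ACS libraries in replicate 2. For Lcn2 they were Steap2, Thbd and the oncostatin M receptor Osmr (0.297, 0.334 and 0.344), each, like Lcn2, highest in ACS replicate 1 and lowest in ACS replicate 3 among ACS libraries. For Hp they were Vav1, S100a10 and Pglyrp1 (0.231, 0.238 and 0.240). For Cebpb they were Fbxo31, Twf2 and Nos1 (0.149, 0.202 and 0.225), each lower in ACS replicate 1 than in any control library. The nearest to Cebpd, named after their values were seen, were H6pd, Slc7a6 and Klhl40 (0.252, 0.284 and 0.306), and H6pd stood at 233, 536 and 124 CPM in ACS replicates 1, 2 and 3 against 34.5 to 63.1 CPM in control.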

How the data were processed

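RNA of rat muscle was freed of ribosomal RNA before library preparation, per the labels' protocols. The authors deposited whole-number read counts and FPKM values per Ensembl gene. The submitters' processing notes list HISAT2 2.0.4, StringTie 1.3.0 and Rnor 6.0. No counting tool, strand setting or rule for multi-mapping reads is stated in the sources used here. The deposited FPKM equalled count over gene length and column total to within 0.1% in all 13786 genes checked. Groups came from sample titles.

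Genes were kept by edgeR's filterByExpr (minimum count 10, minimum total 15), scaled by TMM and tested with the quasi-likelihood F test, with Benjamini-Hochberg adjustment over all 12873 genes kept and a threshold of 0.05. SE was derived from the F statistic. Intervals are 95%. The script was tested on simulated counts, where edgeR recovered 0% of 2-fold and 56% of 4-fold changes. There 3.17% of edgeR calls and 22.3% of DESeq2 calls were false. A change of about 2-fold that did not pass is thus not shown to be absent. The simulation gave both groups of a gene the same relative spread. In the deposited data Cebpd had an SD of 78.0 around a mean of 96.1 CPM in ACS muscle, against 6.67 around 16.9 in control. The simulated rates may therefore not hold for these libraries. Library pairs differed by a chi-square of at least 38.2 per degree of freedom, so none was a duplicate. Versions were edgeR 4.0.16, DESeq2 1.42.0 and limma 3.58.1 under R 4.3.3, with figures drawn in matplotlib 3.10.9.

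The members and 12 gene lists (C/EBP relatives, upstream cytokines, other acute-phase genes, paralogues, and markers of hepatocytes, neutrophils, macrophages, adipocytes, fibroblasts, endothelium, epithelium and skeletal muscle) were chosen with earlier results of these data known. Named were all members; up to 3 genes per list by adjusted p, or the most abundant where none passed; and the 3 nearest profiles for Cebpb and the 3 members of largest fold change. A planned comparison of C/EBP proteins was not made. Alternatives covered test, unit, scaling, filter, replicate block, the 2 libraries described with "ji" and each library left out; sample quality weights were added after seeing the data.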

Additional observations from a re-analysis of the deposited data

How the results depend on the processing

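Direction was kept by all 7 tested members in all 128 alternative fits. Lcn2 and Slpi each passed in 13 (of 19 and 18), Cebpd in 8 of 19, Hp in 3 of 18 (DESeq2, no filter, without ACS replicate 2), Cebpb in 1 of 19 and Cebpa and Cebpg in 0 of 16 and 19 (lowest adjusted p 0.0932 and 0.242). Members higher numbered 3, but 0 with limma-voom, 5 with no filter, 1 with a term for the "ji" libraries, 1 without both, and 0 to 4 with 1 library left out. Genes higher and lower numbered 442 and 91 over the whole table. They were 1329 and 464 with DESeq2, 262 higher with limma-voom, 1059 and 356 with quality weights, 249 and 268 on log2(FPKM + 1), 199 higher on log2(FPKM + 0.1), 345 and 228 with library totals, 755 and 153 with no filter, 248 and 32 with the "ji" term, 171 and 30 without both, and 0 to 1286 and 0 to 398 with 1 library left out. Library totals and FPKM moved the median of all genes to -0.32 and -0.30 (log2), so fold changes there are relative to that shift. Taken from counts in place of FPKM, the difference in share was -15.2 against -9.07 percentage points for Cebpg and -7.13 against -16.9 for Cebpb, which was -7.29 without ACS replicate 1. With the replicate number as a block 3 members passed again, and 442 genes higher and 63 lower; same-numbered libraries did not deviate together (correlations -0.0629, 0.0105 and 0.0397). Otherwise the cause was not tested. Depth limits Cebpa, Hp, Orm1, A2m and the Slpi controls.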

Other observations

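In edgeR 0 markers of adipocytes, fibroblasts, endothelium and epithelium passed, against 3.43% of all genes kept higher and 0.707% lower. Of 9 adipocyte markers 8 were tested; their summed level was 82.8, 105 and 133 CPM in control and 326, 111 and 38.7 CPM in ACS replicates 1, 2 and 3, and Fabp4, the most abundant, measured 60.9 ± 23.1 and 82.3 ± 82.2 CPM (adjusted p = 0.716). DESeq2 called 1 adipocyte marker higher, against 10.4% of all genes, and limma-voom 0, against 2.04%. At an unadjusted p under 0.05 1 was higher, against 15.5% of all genes kept. The 8 fibroblast markers summed to 738 to 1129 CPM in control and 2386, 2436 and 3026 CPM in ACS muscle. Of these 8, 5 were higher and 0 lower at an unadjusted p under 0.05, against 15.5% and 7.98% of all genes kept. By DESeq2 2 were higher, against 10.4% of all genes, and by limma-voom 0, against 2.04%. Col1a1 had an adjusted p of 0.0968 by edgeR. The 6 endothelial markers tested had a median log2 fold change of 0.13, with none at an unadjusted p under 0.05 and none called by DESeq2 or limma-voom; Cdh5 had an adjusted p of 0.320. Of 6 epithelial markers 1 was tested, Cdh1, at 1.40 ± 0.316 and 0.648 ± 0.334 CPM (adjusted p = 0.221), with none called by DESeq2 or limma-voom. Of 12 paralogues of the acute-phase genes 7 had a row, 6 of them with no read, Serpina3c and Serpina3m included, and none was tested.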
